A study of Mus musculus with 4 samples.

Results

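The replication-dependent histone genes were read from the RNA-seq table of a study of the RNA helicase Eif4a2 in CCE cells, a feeder-free embryonic stem cell line from 129/Sv mice. Members were the rows whose symbol names a clustered histone gene of class H1 (H1f1 to H1f6), H2A (H2ac), H2B (H2bc), H3 (H3c) or H4 (H4c), together with rows under the older Hist names. The rule gave 53 of 32592 genes. Present names accounted for 46 of them and older names for 7, and the classes held 6 H1, 17 H2A, 12 H2B, 6 H3 and 12 H4 genes. The rule used names only and no measured value.

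The 4 samples formed 2 groups of 2. All 4 were infected cultures of the same line, grown in serum and leukemia inhibitory factor, selected for 3 days in 1 µg/mL puromycin and collected on day 4.5. The knockdown group received an shRNA against Eif4a2, of which the protocol names sheIF4A2-2 and sheIF4A2-3. The control group received shLuc or shEV, and the labels do not give the shRNA of each sample, so replicates of a group may differ in their construct. Nothing in the labels gives separate cultures of origin, so the p-values rest on a spread between samples that may be no more than technical.

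Eif4a2 itself went against the labels. Its normalized count was 753 and 814 in the 2 knockdown-labelled libraries and 531 and 379 in the 2 labelled control. The mean was 783 ± 43.5 (SD, n = 2) against 455 ± 107 (SD, n = 2), a limma log2 change of 0.80 with an adjusted p of 0.014. Groups are therefore called by their labels only, and a fall is a lower value in the knockdown-labelled libraries. The stem cell markers were present in all 4 libraries, with Pou5f1 at 1841 to 2305, Nanog at 566 to 677 and Sox2 at 937 to 1386. The libraries held 10646302, 12009899, 13681765 and 4604200 reads in genes (knockdown 1, knockdown 2, control 1, control 2), so control 2 was the shallowest. A normalized count is a gene's read count divided by a library size that the authors adjusted, on the CPM scale, and 3 reads were worth 0.266, 0.234, 0.221 and 0.679 in the same order.

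Replication-dependent histone genes supply the protein that packages new DNA during S phase. H2A, H2B, H3 and H4 build the nucleosome core and H1 binds the linker DNA at its edge. Their mRNAs are the known exception among animal mRNAs: most end in a conserved stem-loop, bound by the protein Slbp, in place of a poly(A) tail. Some of these genes also give polyadenylated transcripts that continue past the stem-loop. The libraries were made by a poly(A) protocol, so the values below are reads of histone RNA that entered such libraries.

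Because the 3′ end sets these mRNAs apart, the stem-loop was located in the annotated transcripts (GENCODE M21, GRCm38, a newer build than the mm9 of the submitters' processing notes). The histone stem-loop consensus was found in 35 of 53 members, all in the 3′ UTR, against 62 of 32590 genes of the table that could be matched (0.19%). Sites are shown for genes whose values are described below, chosen to show the forms found in H1, H2A, H2B and H4, with the stem-loop in capitals.

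H1f3, chr13:23555782-23555807, plus strand: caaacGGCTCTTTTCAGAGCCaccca
H2ac8, chr13:23570663-23570688, minus strand: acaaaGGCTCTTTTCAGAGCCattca
H2bc8, chr13:23571838-23571863, plus strand: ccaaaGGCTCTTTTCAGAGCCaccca
H2bc3, chr13:23747198-23747223, plus strand: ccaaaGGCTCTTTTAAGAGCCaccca
H4c4, chr13:23581945-23581970, plus strand: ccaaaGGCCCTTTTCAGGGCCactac
H4c2, chr13:23757361-23757386, plus strand: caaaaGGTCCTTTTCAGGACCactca
H4c1, chr13:23760795-23760820, minus strand: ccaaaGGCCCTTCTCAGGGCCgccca

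The form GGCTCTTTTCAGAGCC, as in H1f3, H2ac8 and H2bc8, was the most frequent, in 18 members, and no H4 gene held it. The H4 genes held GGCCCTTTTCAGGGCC (6 members), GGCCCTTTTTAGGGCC (2), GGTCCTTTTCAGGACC (2) and the form of H4c1, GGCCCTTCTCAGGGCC (1). H2bc3 belongs to the 5 members with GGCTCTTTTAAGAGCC. No match was found in the annotated transcripts of H1f1, H1f5, H2ac13, H2ac15, H2bc4, H2bc21 or H4c12, which says only that these letters are not in those transcripts.

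Promoters of 47 members were available from RefSeq (GRCm38.p6, 250 bases before to 50 after the annotated start). A promoter is shown for 3 genes that fell, of classes H1, H2B and H4. Capitals mark the CCAAT box, the TATAAA box, the octamer motif ATTTGCAT and the H1 element AAACACA. Each was searched on both strands, so that a CCAAT box can read ATTGG, and no motif contains another.

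H1f5, chr13:21780576-21780875, minus strand: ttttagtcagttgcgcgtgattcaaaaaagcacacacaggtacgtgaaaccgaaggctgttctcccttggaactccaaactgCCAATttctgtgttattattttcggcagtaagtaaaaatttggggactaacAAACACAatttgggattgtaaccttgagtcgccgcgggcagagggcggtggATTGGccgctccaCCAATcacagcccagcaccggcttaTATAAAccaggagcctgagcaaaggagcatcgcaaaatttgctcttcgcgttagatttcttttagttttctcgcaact
H2bc8, chr13:23571150-23571449, plus strand: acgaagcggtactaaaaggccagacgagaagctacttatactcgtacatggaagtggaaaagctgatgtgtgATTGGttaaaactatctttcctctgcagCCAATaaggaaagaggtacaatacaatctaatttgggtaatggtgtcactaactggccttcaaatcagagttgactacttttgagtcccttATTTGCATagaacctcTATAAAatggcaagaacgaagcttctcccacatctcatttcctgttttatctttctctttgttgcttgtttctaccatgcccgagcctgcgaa
H4c1, chr13:23761200-23761499, minus strand: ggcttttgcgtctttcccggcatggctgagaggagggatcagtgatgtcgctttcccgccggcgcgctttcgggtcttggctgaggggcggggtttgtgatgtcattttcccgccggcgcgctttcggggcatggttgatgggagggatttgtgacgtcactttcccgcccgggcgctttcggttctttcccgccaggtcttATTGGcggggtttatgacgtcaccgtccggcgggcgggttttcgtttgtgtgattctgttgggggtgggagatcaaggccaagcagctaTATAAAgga

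CCAAT was present in every H1, H2A, H2B and H3 promoter and in 3 of 11 H4 promoters, which made 39 of 47 (83.0%) against 37.4% of all 32851 promoters in the RefSeq table. TATAAA was present in 30 of 47 (63.8%) against 13.6%. In the window of H4c1 it lies in the last 50 bases, past the annotated start. The octamer was found in 6 of 15 H2A and 4 of 10 H2B promoters and in no other class, 10 of 47 in all (21.3%) against 1.74%. AAACACA was found in 5 of 6 H1 promoters and 8 of 47 in all (17.0%) against 7.18%. The matches differed by class, and they describe letters only.

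On chromosome 13 lie 45 members, all but the pseudogene Hist1h2al within chr13:21716422-23934851 (GRCm38). The other 8 lie within chr3:96219865-96269141. Many members are close copies of each other. In 47 of 53, at least part of the annotated transcript recurs in another gene as an identical run of 100 bases, the length of a read, and in 21 the share of such runs was 50% or more. How reads that fit several members were counted is not given in the sources used here, so reads of near-identical members may have been moved between them or left out. All 17 H2A members overlap another annotated gene, as do H1f4, H2bc6, H3c13 and H4c2, which makes 21 members. The strand setting of the counting is not given either.

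Read numbers for the whole family were low, at 909, 1041, 1824 and 1497 in the 4 libraries. No read was counted for 6 members (H2ac1, H2ac19, Hist1h2bq, Hist1h2br, Hist1h4m and Hist1h4n). A filter on low counts passed 31 members, namely 5 H1, 8 H2A, 8 H2B, 2 H3 and 8 H4 genes. Of these, 11 passed through the control libraries alone, with both controls but not both knockdown libraries at the filter's level of 0.883 CPM. Another 3 passed through the knockdown libraries alone. The 22 members that were not tested reached at most 15 reads in a library, and 16 of them had a read.

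Histone values were lower in the knockdown-labelled libraries. By limma with Benjamini-Hochberg adjustment, 14 of the 31 tested members fell and 0 rose, where 12.4% of the 14890 genes tested fell and 10.5% rose. The members that fell were 3 of 5 H1, 1 of 8 H2A, 5 of 8 H2B, 0 of 2 H3 and 5 of 8 H4 genes. As no member was higher, none rose at an unadjusted p under 0.05 either. The other 17 members, none of which passed the test, also had negative log2 changes, so all 31 lay between -2.74 and -0.12 with a median of -1.19, beside a median of -0.01 over all genes tested. The 11 members that passed the filter through the controls alone could not reach its level in both knockdown libraries, which favours a fall. Among the 15 that passed in both groups, 8 fell and the median was -1.20. By edgeR's quasi-likelihood test on the recovered reads 16 members fell (13.1% of all genes) and 0 rose (12%), the additions being H2ac20 and H4c6. The limma count was 10 without knockdown 1 (4.39% of all genes), 9 without knockdown 2 (2.65%), 29 without control 1 (26.5%), 15 without control 2 (24.4%), and 5 without the variance trend (5.8%). In the authors' deposited table a total of 20 members had a negative change with an adjusted p under 0.05 (5.61% of its genes) and 0 had a positive one (5.91%).

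**Figure D1:**
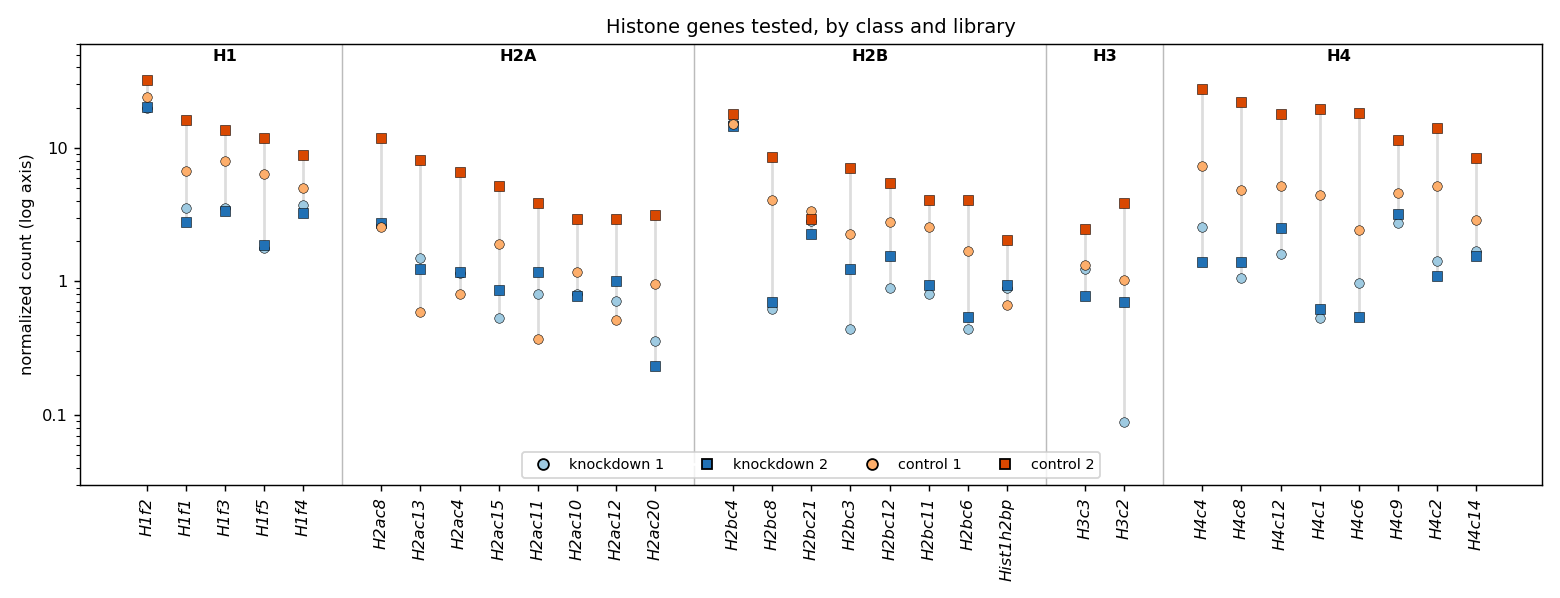
Normalized count (log axis) of each of the 31 tested histone genes, 1 point per library, grouped by class; light points are the first and dark points the second knockdown-labelled library (blue) or control (orange), and the grey line joins the lowest and highest. Control 2 is the highest point of every gene but H2bc21, and the knockdown points lie close together for most genes.

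The 2 control libraries were far apart in these genes. Control 2 was above control 1 in 30 of 31 tested members, where that held for 46.8% of all genes tested. The median log2 difference of control 2 from control 1 was 1.15 over the members and -0.02 over all genes, while knockdown 2 differed from knockdown 1 by 0.03 over the members. Taken by itself, control 1 exceeded the knockdown mean by a median log2 difference of 0.60, and control 2 did so by 1.79. Both controls were above both knockdown libraries in 24 of 31 members, against 34.6% of all genes tested. The same order was found in 24 of 30 genes of S-phase replication, described further below. The count of 24 of 31 members includes all 11 that passed the filter through the controls alone, in which the filter favours this order. It held in 13 of the 15 that passed in both groups, in 0 of the 3 that passed through the knockdown libraries alone and in 0 of the 2 that passed in 1 library of each group. Size therefore depended on which control was used, while for the H1, H2B and H4 medians direction did not. The H3 median kept its sign too, but both of its genes passed the filter through the controls alone, which favours that sign. The same route held for H2bc3, H2bc6, H2bc8 and H2bc11 of H2B and for H4c1 and H4c6 of H4.

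Summed over all 53 members, the normalized count was 80.7 and 81.1 in the knockdown-labelled libraries and 134 and 339 in the controls. The 2 knockdown sums were nearly equal and both controls were higher. The mean was 80.9 ± 0.251 (SD, n = 2) against 236 ± 145 (SD, n = 2), a ratio of control to knockdown of 2.92. With control 1 alone the ratio was 1.66 and with control 2 alone it was 4.19.

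**Figure D2:**
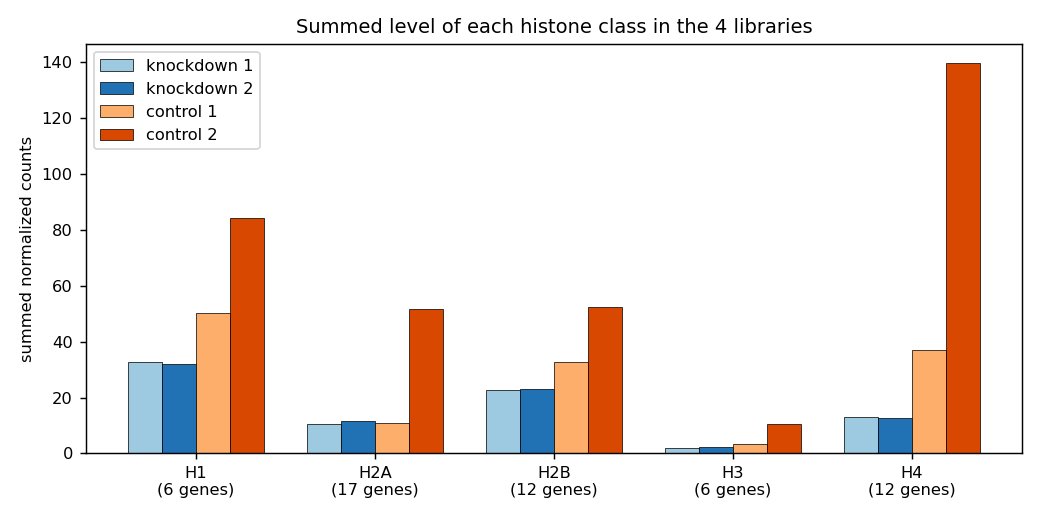
Summed normalized count of each histone class, over all its members, with 1 bar per library. H4 runs from 12.9 and 12.5 in the knockdown-labelled libraries to 37.0 and 140 in the controls, while the H2A sum of control 1 lies among those of the knockdown libraries.

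H4, the core histone that pairs with H3, had the largest ratio of the 5 class sums, although differences between classes were not tested. Its sum was 12.9 and 12.5 in the knockdown-labelled libraries and 37.0 and 140 in the controls. The control mean was 6.95 times the knockdown mean, 2.91 times with control 1 alone and 11.0 times with control 2 alone. H4 also took a different share of the histone reads in each control. It made up 16.0% (exact 95% binomial interval 13.6 to 18.5) and 15.5% (13.3 to 17.8) in the knockdown-labelled libraries, 27.6% (25.5 to 29.7) in control 1 and 41.2% (38.7 to 43.8) in control 2. These intervals cover counting error only. Over the same libraries the H1 share went from 40.6% and 39.3% to 37.3% and 24.9%.

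Of the tested members H4c1 had the largest log2 change. It passed the filter through the controls alone, which favours a fall. Its normalized count was 0.533 and 0.623 in the knockdown-labelled libraries and 4.42 and 19.5 in the controls, from 6, 8, 60 and 86 reads. Control 2 was well above control 1. The control mean was 20.7 times the knockdown mean, or 7.64 times with control 1 alone, with a log2 change of -2.74 (SE 0.55) and a limma adjusted p of 0.0162. H4c4, which shares no run of 100 bases with another gene, was at 2.57 and 1.40 against 7.29 and 27.6. It fell by 2.39 on the log2 scale (limma adjusted p 0.0222). H4c8, from 1.07 and 1.40 to 4.86 and 22.2, fell by 2.39 (limma adjusted p 0.0266). H4c12, at 1.60 and 2.49 against 5.23 and 17.9, fell by 1.85 (limma adjusted p 0.0343). H4c2, at 1.42 and 1.09 against 5.23 and 14.0, fell by 2.10 (limma adjusted p 0.0135). H4c4, H4c8, H4c12 and H4c2 passed the filter in both groups, and in each both controls were above both knockdown libraries. H4c6, H4c9 and H4c14 had log2 changes of -2.21, -1.07 and -1.20 that did not pass the test (limma adjusted p 0.0589, 0.0740 and 0.0671). Without the variance trend in limma, H4c1, H4c4, H4c8 and H4c12 no longer passed, with adjusted p of 0.0553, 0.0676, 0.0753 and 0.0855.

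In H2B, the core histone that pairs with H2A, 5 of 8 tested genes fell, where 12.4% of all genes tested fell. The other 3 had log2 changes between -0.23 and -0.12 that did not pass the test. Of the 5 that fell, H2bc8, H2bc3, H2bc6 and H2bc11 passed the filter through the controls alone, which favours a fall. H2bc12 passed in both groups. H2bc8 was at 0.621 and 0.701 in the knockdown-labelled libraries and at 4.05 and 8.60 in the controls. Its log2 change was -2.07 (SE 0.32), with a limma adjusted p of 0.0085. H2bc3 was at 0.444 and 1.25 against 2.28 and 7.01, a log2 change of -1.51 (limma adjusted p 0.0464). H2bc6, H2bc11 and H2bc12 fell by 1.31, 1.19 and 1.17 (limma adjusted p 0.0319, 0.0197 and 0.0374). H2bc4 was at 15.6 and 14.5 in the knockdown-labelled libraries and at 15.2 and 17.9 in the controls, so the groups overlapped. Its log2 change of -0.12 had a 95% interval from -0.48 to 0.24 (limma adjusted p 0.596), which does not reach the median change of its class, -1.18. H2bc21, at 2.84 and 2.26 against 3.39 and 2.94, had a log2 change of -0.23 with an interval from -0.74 to 0.28 (limma adjusted p 0.467), and was the member in which control 2 was not the highest library. Hist1h2bp had a log2 change of -0.23 (limma adjusted p 0.629). The calls of H2bc6, H2bc11 and H2bc12 were lost without either knockdown library (limma adjusted p 0.0870, 0.0959 and 0.173 without knockdown 1, and 0.0904, 0.0943 and 0.0645 without knockdown 2), and that of H2bc3 without knockdown 1 (limma adjusted p 0.122). Without the variance trend H2bc3, H2bc6 and H2bc12 did not pass (limma adjusted p 0.0967, 0.0596 and 0.0677).

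**Figure D3:**
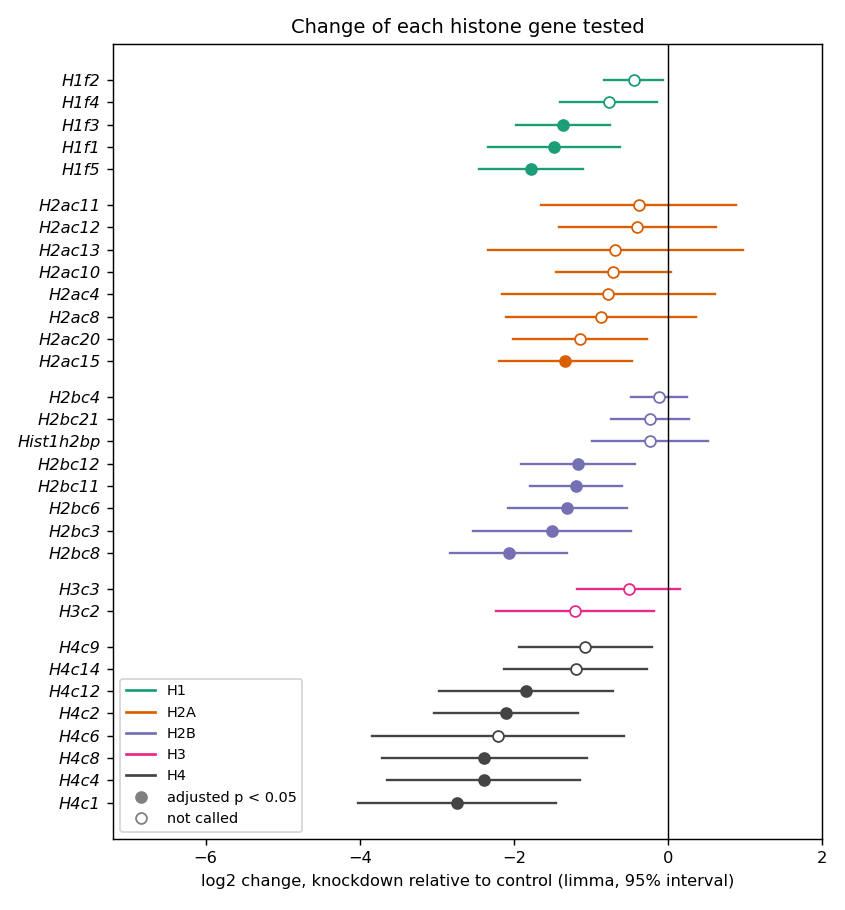
Log2 change of each of the 31 tested histone genes in the knockdown-labelled libraries relative to control, from limma, with 95% intervals; filled points passed an adjusted p of 0.05 and open points did not. All points lie below 0, the 5 H4 genes that fell reach from -1.85 to -2.74, and the intervals of H2bc4, H2bc21, Hist1h2bp, H3c3 and 6 H2A genes include 0.

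The linker histones of class H1 fell in 3 of 5 genes tested, where 12.4% of all genes tested fell. H1f5 was at 1.78 and 1.87 in the knockdown-labelled libraries and at 6.33 and 11.8 in the controls. The groups did not overlap, and the log2 change was -1.78 (SE 0.29, limma adjusted p 0.0092). H1f3 was at 3.55 and 3.35 against 7.95 and 13.6, a log2 change of -1.36 (limma adjusted p 0.0141). H1f1, at 3.55 and 2.80 against 6.77 and 16.3, fell by 1.48 (limma adjusted p 0.0297, 0.0609 without knockdown 2 and 0.0724 without the variance trend). All 5 tested H1 genes passed the filter in both groups. H1f2 was at 20.0 and 20.4 against 24.0 and 32.4, a log2 change of -0.45 (SE 0.16) that did not pass the test (limma adjusted p 0.0891). H1f4 had a log2 change of -0.77 (limma adjusted p 0.0780). H1f6, a testis form, had 2, 2, 1 and 7 reads and was not tested. The sum of the class was 32.8 and 31.8 against 50.1 and 84.4, a ratio of 2.08.

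In H2A, which forms a dimer with H2B, the controls lay on opposite sides of the knockdown libraries in several genes. H2ac8 was at 2.66 and 2.73 in the knockdown-labelled libraries, at 2.58 in control 1 and at 11.8 in control 2. H2ac13 was at 1.51, 1.25, 0.589 and 8.15, and H2ac4 at 1.15, 1.17, 0.810 and 6.56, in the same order. In all 3 genes control 1 was below both knockdown libraries and control 2 was far above them. Their log2 changes of -0.87, -0.68 and -0.78 did not pass the test (limma adjusted p 0.262, 0.513 and 0.370), and without control 2 they were 0.05, 0.58 and 0.26. H2ac15 was the H2A gene that fell, from 1.91 and 5.20 in the controls to 0.533 and 0.857, a log2 change of -1.33 (limma adjusted p 0.0408). It passed the filter through the controls alone. The call was lost without either knockdown library (limma adjusted p 0.112 and 0.0695) and without the variance trend (0.0797). Over the class both controls were above both knockdown libraries in 3 of 8 genes tested. The H2A sum was 10.5 and 11.5 against 10.8 and 51.8, and the control to knockdown ratio of 2.85 became 0.983 with control 1 alone. The median log2 change of -0.74 rested on control 2 in the same way, and was 0.15 without it.

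H3 had few reads. H3c3 was at 1.24 and 0.779 against 1.32 and 2.49, and H3c2 at 0.0888 and 0.701 against 1.03 and 3.85. Both genes passed the filter through the controls alone, which favours that order of the groups. Neither log2 change, -0.51 and -1.20, passed the test (limma adjusted p 0.224 and 0.0859). Of the 2, 1 had an unadjusted limma p under 0.05, and edgeR called 0. The H3c2 value of knockdown 1 was a single read. H3c1, with 1, 1, 7 and 5 reads, was not tested. In the authors' deposited table H3c2 and H3c1 had log2 changes of -2.37 and -2.92, with adjusted p of 0.00819 and 0.0251.

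**Figure D4:**
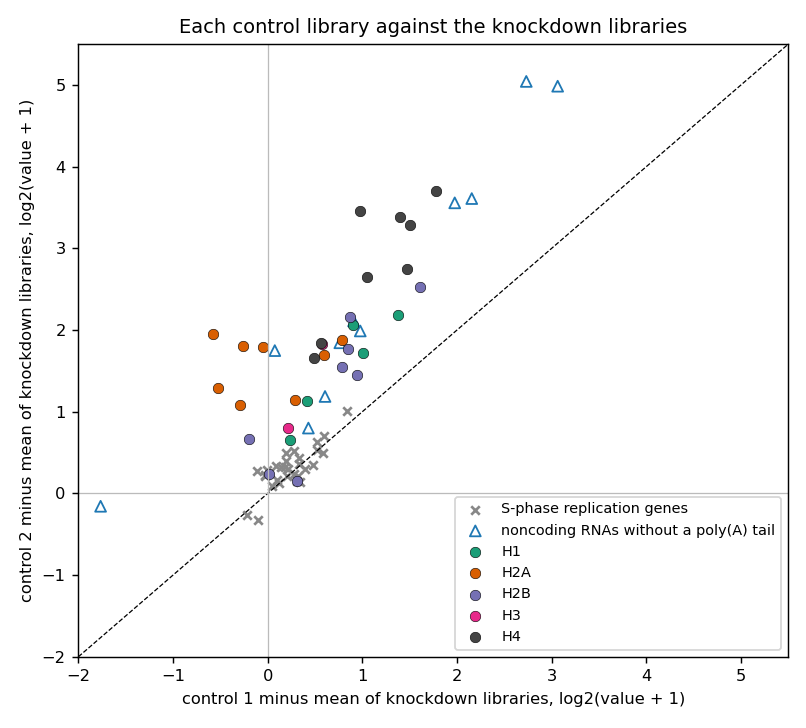
Each tested histone gene (circles, coloured by class), S-phase gene (crosses) and RNA without a poly(A) tail (triangles) by its difference in log2(value + 1) from the knockdown mean in control 1 (horizontal) and control 2 (vertical), with a dashed line where both controls are equal. Every histone gene but H2bc21 and all 11 triangles lie above the line, and 5 of 8 H2A genes lie left of 0.

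Neighbouring H2A and H2B genes that start back to back did not show equal log2 changes in the pairs named below, in which both genes were tested. In 8 such pairs the annotated starts lie 176 to 306 bases apart. H2ac8 and H2bc8, whose starts are 176 bases apart and whose promoter letters are shared in the H2bc8 window above, had log2 changes of -0.87 and -2.07, and H2bc8 alone fell. The same held for H2ac11 and H2bc11, at -0.38 and -1.19, and for H2ac12 and H2bc12, at -0.40 and -1.17. H2ac20 and H2bc21 went the other way, at -1.14 and -0.23, and neither passed the test. The difference within a pair was not tested. H2bc8, H2bc11 and H2ac20 passed the filter through the controls alone and their partners did not, which favours the larger fall in these 3 genes.

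Members that fell were found with and without a stem-loop in the annotated transcript. For all counts in this paragraph, 12.4% of all genes tested fell. Of the 22 tested members with the stem-loop 10 fell, with a median log2 change of -1.20, and of the 9 without it 4 fell, with a median of -0.71. This split follows annotated letters and not measured 3′ ends, and H4c12 and H2ac15 are annotated at only 312 and 393 bases. Of the 11 members that passed the filter through the controls alone, all but H2ac10 and H2ac15 have the stem-loop. That route favours a fall, so the medians of this split do not compare like with like. Members whose annotated transcript continues 300 bases or more past the stem-loop had a summed control to knockdown ratio of 2.35 (1.54 with control 1 alone). Those with a shorter end had 5.53 (2.37 with control 1 alone), yet the medians of single genes were -1.20 and -1.19. H1f2, at 20.0 and 20.4 in the knockdown-labelled libraries, was the highest gene of the longer set and had a ratio of 1.40. Of those that passed through the controls alone, H2bc6 has the longer end and H2ac20, H2bc3, H2bc8, H2bc11, H3c2, H3c3, H4c1 and H4c6 the shorter. The sets thus differ in gene content and filter route, and an effect of length was not tested. By cluster, 14 of 28 tested members on chromosome 13 fell and 0 of 3 on chromosome 3 (2 of 3 at an unadjusted limma p under 0.05, and 1 by edgeR), with medians of -1.20 and -1.14. With 3 genes, 0 is near the share of all genes and says nothing of the cluster. Members that fell were also found at each degree of shared sequence. The count was 3 of 5 where no run of 100 bases was shared, 8 of 17 where under 50% were shared and 3 of 9 above that, with medians of -1.48, -1.19 and -0.78. Of the 8, only H1f3 and H4c8 passed the filter in both groups. H2ac15, H2bc3, H2bc6, H2bc8, H2bc11 and H4c1 passed through the controls alone, which favours a fall.

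Of 21 tested factors that act in histone transcription and 3′ processing, 7 fell and 1 rose, where 12.4% of all genes fell and 10.5% rose, and the median log2 change was -0.16. Slbp, the protein that binds the stem-loop, was at 50.6 and 47.1 in the knockdown-labelled libraries and at 88.0 and 99.6 in the controls. It fell by 0.93 on the log2 scale (limma adjusted p 0.0039). Eri1, the exonuclease that trims the stem-loop end, was at 45.1 and 41.3 against 89.4 and 96.8 and fell by 1.09 (limma adjusted p 0.0026). In both genes the 2 controls were close to each other, unlike in the histone genes. Npat, the coactivator of histone gene transcription, and Zfp473, a zinc finger protein of the U7 complex, had log2 changes of 0.01 and 0.00, and Lsm10 and Lsm11, the U7-specific ring proteins, of 0.08 and 0.35, none past the test. Cpsf2, Cpsf3, Casp8ap2, Cdk2 and the histone chaperone Nasp fell by 0.32 to 0.42, and the scaffold protein Sympk rose by 0.32.

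Variant histones, whose genes are used outside S phase as well, did not share a direction. Of 11 tested 3 fell (12.4% of all genes), 1 rose (10.5%) and the median was 0.03. H2ax, the variant phosphorylated at DNA breaks, was at 365 and 331 against 883 and 856 and fell by 1.32 (limma adjusted p 0.0026). Its controls were nearly equal, and the stem-loop consensus was found in its annotated transcripts as well. H3f3b, a gene for H3.3, fell by 0.64 and the linker variant H1f10 by 0.77, and Macroh2a1 rose by 0.44. H2az1, H2az2, H3f3a, H2aj, H1f0, Cenpa and Macroh2a2 did not pass the test.

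Cell cycle genes and RNAs without a poly(A) tail are given here beside the histone genes, and their part in the result was not tested. Of all genes tested 12.4% fell and 10.5% rose. Of 30 genes of S-phase replication 8 fell and 0 rose (1 at an unadjusted limma p under 0.05, and 0 by edgeR), with a median log2 change of -0.25. Their sums were 5424 and 5186 in the knockdown-labelled libraries and 6313 and 6696 in the controls, and Mcm3 and Mcm6, subunits of the replicative helicase, fell by 0.57 and 0.64. Of 20 genes of G2 and mitosis 3 fell (15%, near the share of all genes) and 0 rose, with a median of -0.12, and of the 11 tested RNAs described next 0 rose as well; in both lists 0 rose at an unadjusted limma p under 0.05 or by edgeR. These RNAs, known to lack a poly(A) tail, moved further. Of 27 matched 11 were tested and 7 fell, with a median of -1.48 over those tested. The sums over all 27 were 40.4 and 35.7 against 152 and 634. Filter routes were not counted for this list and are given below for Rnu3a alone. A gene tested through the controls alone is favoured to fall. Control 2 was above control 1 in 11 of 11, by a median log2 difference of 1.45, near the 1.15 of the histone genes. Rmrp, the RNA of RNase MRP, was at 15.6 and 10.7 against 91.8 and 459. The U3 gene Rnu3a, at 0.710 and 0.701 against 13.2 and 53.0, passed the filter through the controls alone. Rn7sk and Terc had log2 changes of -0.61 and 0.96 and did not pass the test. Log2 changes were negative in 28 of 30 S-phase genes, 20 of 20 of G2 and mitosis and 10 of 11 of these RNAs. Both controls were above both knockdown libraries in 24, 11 and 9 of them, against 34.6% of all genes tested. At an unadjusted limma p under 0.05, 19, 7 and 9 were lower, beside 21 of 31 histone genes. The share of all genes at that level was not taken. In bulk samples fewer cells in S phase and less histone RNA per cell cannot be told apart. The values are also only reads of RNA that entered poly(A) libraries, and how much of it entered each library was not tested.

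**Figure D5:**
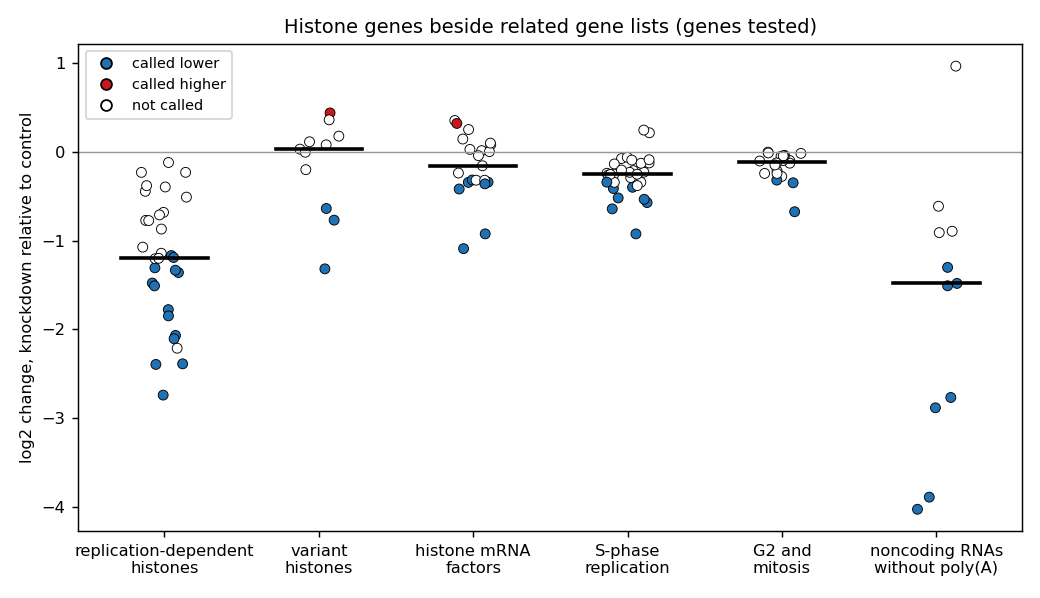
Log2 changes of every tested gene in the histone group and in 5 related lists, 1 point per gene, filled where the gene was called lower (blue) or higher (red), with a bar at each median. The median of the histone genes is -1.19 and that of RNAs without a poly(A) tail -1.48, and the other lists have medians between -0.25 and 0.03.

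Fibroblast markers, listed for cells that a stem cell culture could hold, did not follow the histone pattern. Of 20 listed 13 were tested, 1 fell (12.4% of all genes) and 3 rose (10.5%), with a median of 0.56. Dcn, Lum, Fap and S100a4 had 0 reads in all 4 libraries. The summed level was 1310 and 1329 in the knockdown-labelled libraries and 1489 and 1363 in the controls, mostly from Fn1, Cald1 and Vim.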

How the data were processed

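RNA of 4 samples was sequenced as poly(A) libraries with single-end reads, per the labels' protocols. Names listed in the submitters' processing notes, without roles, are Bowtie2 2.3.4.3, SAMtools 1.9, HTSeq 0.11.2, edgeR 3.26.8 and the build mm9. The deposited signal is a gene's count divided by an adjusted library size, as CPM. It came out as whole reads for 100% of values within a tolerance of 0.001. Per the file headers, the authors' comparison gives log2 fold changes and mean log2 CPM, a likelihood ratio score and p-values.

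The design named counts as the expected unit. As the table holds normalized values, limma 3.58.1 (R 4.3.3, with a variance trend) was fitted to log2(value + 1) of all genes passed by edgeR 4.0.16's filterByExpr (14890 of 32592). This scale understates changes of low genes. Tests were two-sided with Benjamini-Hochberg adjustment, and an adjusted p under 0.05 was a call. With 2 libraries a group, 0.333 is the smallest p that an exact permutation test allows; limma reaches lower values by sharing variance across genes. The fit was also run on counts simulated with the same spread in both groups, which does not model the wider control pair. That run checks the code and lends the results here no weight.

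Members and lists were chosen with earlier results of these data known. Genes named in full were, per class, the 4 with the highest mean normalized count among those tested and the largest change among those with a mean of 5 or more; the others named were chosen after their values were seen. Lists were matched by symbol, and 27 rows were found for the RNAs without a poly(A) tail. Coordinates are of GRCm38, and none was converted. Replicates of a group differed by more than sampling noise (chi-square per degree of freedom 1.95 and 12.8 for the knockdown and control pairs), so none was merged.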

Additional observations from a re-analysis of the deposited data

How the results depend on the processing

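The negative sign of the median over the histone genes was kept in all 14 alternatives, and 0 members rose in any. The number that fell was 14, and it was 12 with a pseudocount of 3, 10 without the filter, 12 with scaling by library size only, 16 with DESeq2 1.42.0 and 5 without the variance trend (12.4%, 6.96%, 6.69%, 8.41% and 5.8% of all genes). Leaving out 1 library gave 9 to 29 that fell and medians of -1.79 to -0.60, 15 without control 2 and 29 without control 1. Fits without a control take their spread from the knockdown pair and called 24.4% and 26.5% of all genes lower, against 4.39% and 2.65% without a knockdown library. H1f3, H1f5, H2bc8 and H4c2 fell in all 15 fits. Over all genes 3418 were called, against 1932 without the variance trend, 2219 with DESeq2 and 653 to 7724 with 1 library left out. Eif4a2 kept its log2 change of 0.80 without the variance trend, with an adjusted p of 0.0581, and ranged from 0.56 to 1.04 with 1 library left out.

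Without control 2 the direction of H2A turned. The median was 0.15 and the log2 change of the summed level 0.022, the upper ends of ranges that began at -1.74 and -2.24 with 1 library left out, and H2ac8, H2ac13 and H2ac4 were at 0.05, 0.58 and 0.26. The log2 change of the summed histone level was between -2.07 and -0.73 with 1 library left out, and that of H4 between -3.46 and -1.54.

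With library size only, the median of all genes moved by 0.11 and the share of calls that were lower was 31.6% in place of 54.2%. The histone median was then -1.11, and all 31 log2 changes stayed negative.

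With the replicate number as a block 22 members fell (16% of all genes). Same-numbered samples did not deviate together (r = 0.04 over genes). With a single difference per group this cannot decide whether the numbers pair the samples. Depth limits the untested members, with at most 15 reads in a library.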
